A study of Mus musculus with 6 samples.

Results

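The genes described here are the BTG/TOB antiproliferative genes and the deadenylase genes they work with, measured in CD4 T cells with and without Dicer. The set was fixed by name as Btg1, Btg2, Btg3, Tob1, Tob2, Cnot6, Cnot7, Cnot8, Pan2 and Pan3, and a gene was used where an array row carried its symbol and no other. That left 9 of the 10 genes, out of 19935 genes with such rows. The rows of Btg3 carried the symbol of a transcribed pseudogene, Gm7334, as well, so Btg3 itself has no value. Cells were taken from mouse lymph nodes and sorted as CD4+CD62L-, which the labels call resting, and their RNA was read on 1-colour Affymetrix MoGene 1.0 ST arrays. The Dicer KO group had 3 biological replicates from mice that carried Dicer lox/lox and were positive for CD4Cre, a Cre recombinase transgene driven in developing T cells by the Cd4 promoter. The Dicer WT group had 3 replicates from Dicer lox/lox mice without CD4Cre, so its floxed alleles were intact. No cell received a treatment, and the labels name neither age nor strain. Presence of Cre and loss of Dicer cannot be told apart in this design. Dicer1 itself, on 1 row, read 0.21, -0.02 and -0.09 in Dicer KO against 0.12, 0.02 and -0.10 in Dicer WT, a difference of 0.02 ± 0.09 (limma adjusted p = 0.949). The genotypes overlapped, and which of the row's probes lie in the deleted exon is not known, so the array does not check the labels and genotypes below are as labelled.

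Dicer cuts microRNA precursors into mature microRNAs, which recruit silencing complexes that shorten the poly(A) tails of their targets. In mammalian cells the PAN2-PAN3 complex is known to trim long tails first and the CCR4-NOT complex to finish the job, and both are recruited by the TNRC6 proteins bound to Argonaute. The BTG and TOB proteins share a conserved N-terminal domain that binds the CAF1-type nucleases CNOT7 and CNOT8, and they slow the cell cycle in many cell types. Btg1 and Btg2 are known for keeping T cells quiescent in mice through mRNA decay, and TOB1 is known as a brake on T cell activation.

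Values below are on the log2 scale, and each row of the authors' table is centred at its own median. A value therefore says how far an array lies from the middle of the 6 for that gene, not how much RNA the gene gives. Differences are Dicer KO minus Dicer WT on that scale, with the SE of the limma fit. A gene is called where the Benjamini-Hochberg adjusted p over all 19935 genes is under 0.05. Of all genes, 8.73% were called, and 2.79% were called lower in Dicer KO. A coarse level class can be read from the rounding of the stored numbers, and 16.1% of genes fell in the higher class. All 10 measured T cell markers were in it, among them Cd3e, Cd3g and Cd4, against 0 of 16 B cell markers, 2 of 16 myeloid markers and 2 of 11 NK and CD8 markers. Genes of the higher class leaned upward in Dicer KO, with a median difference of 0.11 against -0.019 in the class below, and 25.3% of them were called.

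Of the 9 genes, 2 were called, both higher in Dicer KO: Btg1 and Btg2. That is 22.2% of the set, where 8.73% of all genes were called in either direction and 5.94% were called higher. Of its 8 genes in the higher level class, 25% were called, which is close to the 25.3% of all genes of that class. The other 7 did not pass the test, 8 of the 9 had a positive difference, and the median difference was 0.23, against -0.011 over all genes and 0.11 over the higher class. With the arrays centred within level classes the median was 0.13, 8 differences stayed positive, and the same 2 genes, Btg1 and Btg2, were called. For 4 of the 9 (Btg1, Btg2, Tob2 and Cnot6) every Dicer KO array lay on the same side of every Dicer WT array. That is 44.4% of the set, where 26.2% of all genes had arrays that separated in this way. The share was not taken within the higher level class, which holds 8 of the 9, so no excess is read from it.

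The promoters of Btg1 and Btg2 are printed because these are the genes that rose together. Each window runs from 250 bases before to 50 bases after the annotated start in RefSeq's GRCm38.p6 annotation, 5′ to 3′ on the gene's strand: chr10:96616751-96617050 on the plus strand for Btg1 and chr1:134079106-134079405 on the minus strand for Btg2. Capitals mark matches to any of 5 short motifs, chosen after the windows had been read, and a match on the other strand appears as its reverse complement.
Btg1: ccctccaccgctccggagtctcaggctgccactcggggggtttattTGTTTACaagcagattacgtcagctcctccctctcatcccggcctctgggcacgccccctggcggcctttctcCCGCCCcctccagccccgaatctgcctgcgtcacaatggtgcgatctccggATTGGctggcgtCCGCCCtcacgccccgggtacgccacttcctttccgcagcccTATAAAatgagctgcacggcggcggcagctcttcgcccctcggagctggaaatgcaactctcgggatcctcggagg
Btg2: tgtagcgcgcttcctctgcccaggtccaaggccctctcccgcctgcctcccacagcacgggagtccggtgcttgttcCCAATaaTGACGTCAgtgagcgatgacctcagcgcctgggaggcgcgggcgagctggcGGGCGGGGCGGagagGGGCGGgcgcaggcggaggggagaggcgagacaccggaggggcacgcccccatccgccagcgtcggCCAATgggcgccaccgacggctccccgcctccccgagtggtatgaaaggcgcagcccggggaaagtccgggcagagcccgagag

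The motifs were searched on both strands. The Btg2 window held the cyclic AMP response element TGACGTCA, starting 166 bases before the start site. It was found in 1.79% of all 32851 windows and in no other member's window. The Btg1 window held the forkhead motif TGTTTAC 204 bases before the start site, a motif found in 3.65% of windows and again in no other member's, and the TATA box TATAAA 26 bases before it, found in 13.6% of windows and also in that of Tob1. Both windows held CCAAT (37.4% of windows), 1 match in Btg1 and 2 in Btg2, and the GC box GGGCGG (35.7% of windows), 2 matches in Btg1 and 3 in Btg2, of which the first pair in Btg2 overlap each other by a base. A match describes the letters only. Cnot7 had no window in the table.

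Btg2, a BTG protein whose gene is also p53-responsive, was 1.61-fold higher in Dicer KO. It read 0.33, 0.26 and 0.35 on the Dicer KO arrays 1 to 3, against -0.26, -0.42 and -0.45 on the Dicer WT arrays. All 3 Dicer KO arrays lay above all 3 Dicer WT arrays, and the spread within each genotype was small beside the gap between them. The means were 0.31 ± 0.05 in Dicer KO and -0.38 ± 0.10 in Dicer WT (SD, n = 3 each), a difference of 0.69 ± 0.06 (limma adjusted p = 0.00182, 95% interval 0.54 to 0.84). In all, 347 of the 19935 genes had a larger difference in either direction. The call held without any 1 array, with differences from 0.65 to 0.75 and adjusted p from 0.00449 to 0.0124.

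Btg1, the closest relative of Btg2 in the family, was 1.54-fold higher in Dicer KO. Its values were 0.29, 0.48 and 0.20 on the Dicer KO arrays, against -0.30, -0.20 and -0.41 on the Dicer WT arrays. Again no Dicer KO array overlapped a Dicer WT array, though Dicer KO 2 stood above the other Dicer KO arrays. The means were 0.32 ± 0.14 in Dicer KO and -0.30 ± 0.11 in Dicer WT (SD, n = 3 each), and the difference was 0.63 ± 0.09 (limma adjusted p = 0.00743, 95% interval 0.42 to 0.84). The call held without any 1 array (0.55 to 0.69, adjusted p 0.012 to 0.036). With n = 3 per genotype an exact two-sided permutation test cannot go below p = 0.1. It gave that value for Btg1 and Btg2, and also for Tob2 and Cnot6, which were not called.

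Tob1 and Tob2, the longer members of the family, carry motifs that bind cytoplasmic poly(A)-binding protein. Tob1 read 0.01, -0.01 and 0.15 on the Dicer KO arrays and 0.02, -0.11 and -0.16 on the Dicer WT arrays. These overlap, and the difference of 0.13 ± 0.07 did not pass (limma adjusted p = 0.344). It was 0.08 without Dicer KO 3 and 0.04 with the arrays centred within level classes. Its 95% interval, -0.03 to 0.30, lies below that of Btg1 and that of Btg2, but whether Tob1 responds differently from them was not tested. Tob2 was the 1 member with a negative difference: -0.27, -0.20 and -0.02 on the Dicer KO arrays, against 0.02, 0.09 and 0.03 on the Dicer WT arrays. The arrays did not overlap, but Dicer KO 3 sat close to the Dicer WT values, and the difference of -0.21 ± 0.07 did not pass (limma adjusted p = 0.135). Without Dicer KO 3 it was -0.28 and passed (limma adjusted p = 0.043). Tob2 was also the only gene of the set with no row in the higher level class.

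**Figure D1:**
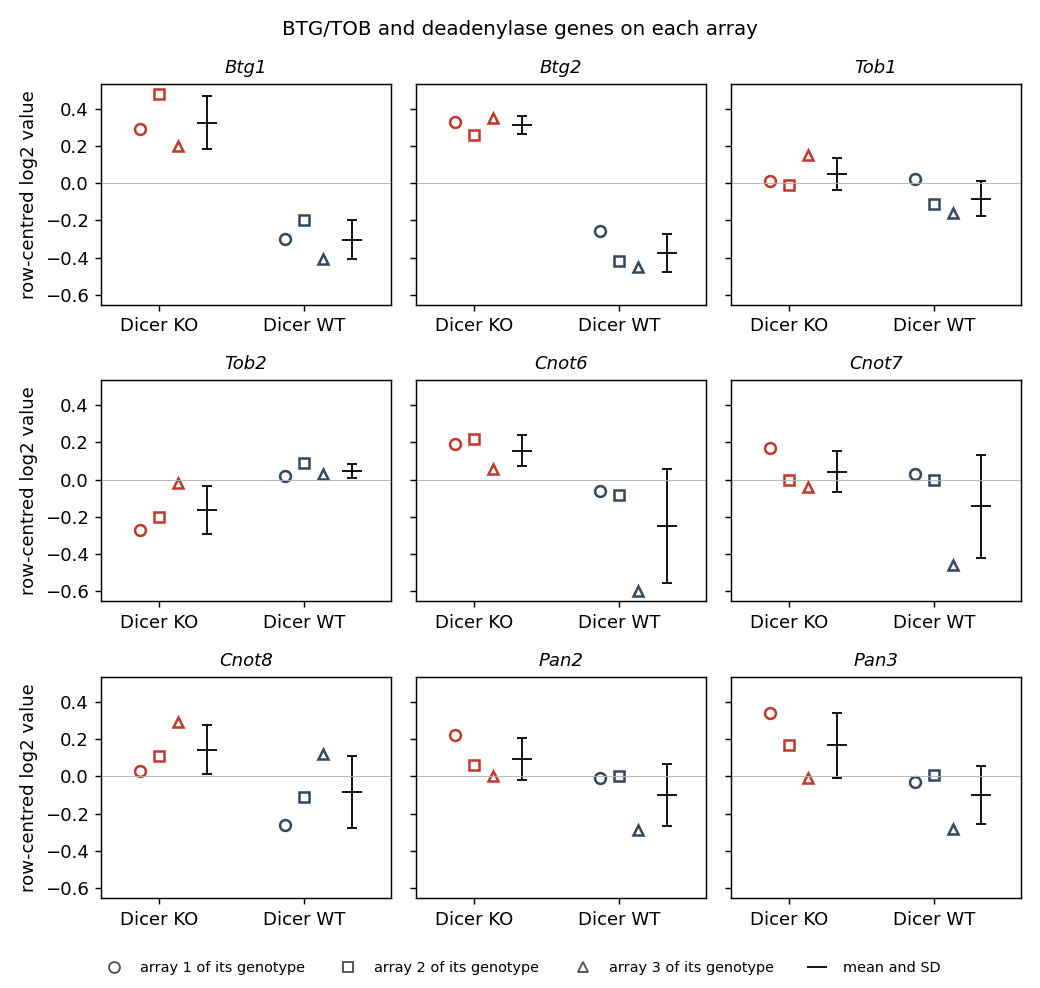
Row-centred log2 value (y axis) of each of the 9 measured genes on each array, with the Dicer KO arrays left of the Dicer WT arrays and the mean with its SD (n = 3) beside each genotype. Btg1, Btg2, Tob2 and Cnot6 separate the genotypes. Cnot6, Cnot7, Pan2 and Pan3 have Dicer WT 3 (triangle) as a low array apart from the other 2 Dicer WT arrays.

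All 5 deadenylase genes of the set, Pan3 as an adaptor subunit among them, had a positive difference. Their median was 0.23, and 0 of the 5 were called. All 5 are in the higher level class, whose median is 0.11, and centring within level classes brought theirs to 0.13, with all 5 still positive. Cnot6, a CCR4-type nuclease of the CCR4-NOT complex, read 0.19, 0.22 and 0.06 on the Dicer KO arrays, against -0.06, -0.08 and -0.60 on the Dicer WT arrays. The genotypes did not overlap, and Dicer WT 3 lay far below the other 5 arrays. The difference was 0.40 ± 0.14 (limma adjusted p = 0.153) and 0.23 ± 0.07 without Dicer WT 3 (limma adjusted p = 0.105). Without both arrays numbered 3, a fit chosen after seeing the data, it was 0.27 ± 0.06 and passed (limma adjusted p = 0.048).

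Cnot7, a CAF1-type nuclease and binding partner of the BTG and TOB proteins, read 0.17, 0.00 and -0.04 on the Dicer KO arrays, against 0.03, 0.00 and -0.46 on the Dicer WT arrays. Apart from the low Dicer WT 3, the genotypes lay on top of each other. The difference was 0.18 ± 0.13 (limma adjusted p = 0.533), and 0.02 ± 0.08 without Dicer WT 3, with a 95% interval of -0.16 to 0.21.

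Cnot8, the paralog of Cnot7, was the 1 member on 2 rows. Their mean read 0.03, 0.11 and 0.29 on the Dicer KO arrays and -0.26, -0.11 and 0.12 on the Dicer WT arrays. The genotypes overlapped, and in Cnot8 it was Dicer WT 1, not Dicer WT 3, that was lowest. The difference was 0.23 ± 0.11 (limma adjusted p = 0.299), and 0.14 ± 0.11 without Dicer WT 1 (limma adjusted p = 0.589). Without Dicer WT 3 it was larger, at 0.33 ± 0.09, and did not pass (limma adjusted p = 0.0895). The rows, of which 1 is in the higher level class and 1 in the class below, were not tested against each other. The row annotated with 4 transcript accessions had 0.00, 0.28 and 0.32 in Dicer KO against -0.15, -0.13 and 0.00 in Dicer WT, a difference of 0.29 ± 0.10 (limma adjusted p = 0.12 over all rows). The row annotated with 1 accession had 0.06, -0.06 and 0.25 in Dicer KO against -0.38, -0.10 and 0.23 in Dicer WT, a difference of 0.17 ± 0.16 (limma adjusted p = 0.635 over all rows).

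The PAN2-PAN3 complex showed a layout like that of Cnot7, not that of Cnot8. Pan2, its nuclease, read 0.22, 0.06 and 0.00 on the Dicer KO arrays, against -0.01, 0.00 and -0.29 on the Dicer WT arrays. Pan3, its adaptor and RNA-binding subunit, read 0.34, 0.17 and -0.01 in Dicer KO, against -0.03, 0.01 and -0.28 in Dicer WT. In both genes Dicer KO 1 was highest and Dicer WT 3 lowest, and in Pan3 Dicer KO 2 lay between Dicer KO 1 and the other arrays. The difference was 0.19 ± 0.10 for Pan2 (limma adjusted p = 0.326). It was 0.27 ± 0.11 for Pan3 (limma adjusted p = 0.216). Without Dicer WT 3 they were 0.10 ± 0.08 and 0.18 ± 0.10 (limma adjusted p = 0.584 and 0.406).

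Dicer WT 3 was thus the lowest array for 4 of the 5 deadenylase genes. It was the lowest array for 37.4% of genes of the higher level class and for 20.5% of all genes. Btg1 and Btg2 were also lowest on Dicer WT 3, but by a small margin, and their differences without it were 0.57 ± 0.09 and 0.65 ± 0.07 (limma adjusted p = 0.0171 and 0.00449).

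**Figure D2:**
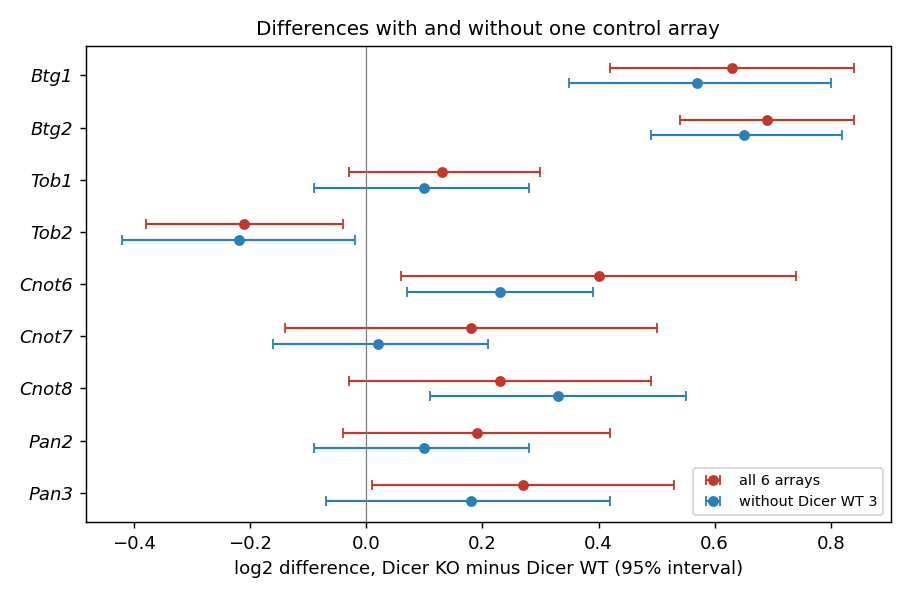
Difference between the genotypes, Dicer KO minus Dicer WT in log2 units (x axis), with its 95% interval for the 9 genes (y axis), with all 6 arrays and without Dicer WT 3. The intervals of Btg1, Btg2 and Cnot6 lie above 0 in both fits. That of Pan3 does so only with all 6 arrays, and that of Cnot8 only without Dicer WT 3. The intervals are not adjusted for the number of genes, and Cnot6, Pan3 and Cnot8 were called in neither fit. Cnot7 moves to 0.02 without Dicer WT 3, and Tob2 stays below 0.

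By pattern over the 6 arrays, with likeness measured as the root mean square difference after centring each gene on its mean, the genes nearest to Btg2 were Mcl1 (0.031), an antiapoptotic BCL2 family member, Trappc13 (0.044), a subunit of a vesicle tethering complex, and Ccng1 (0.044), a p53-responsive cyclin. Those nearest to Btg1 were Jak1 (0.040), a cytokine receptor kinase, Prkcq (0.042), the protein kinase C of T cell receptor signalling, and Ankib1 (0.051). Btg1 lay 0.137 from Btg2, with 255 genes nearer to it. With 6 arrays split by genotype, any gene with a difference of like size comes close, so these values are a description.

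In the rest of the CCR4-NOT complex, 2 of 8 genes rose and 0 fell, with a median of 0.12, and all 8 differences were positive. That is 25% called in a list with 6 genes in the higher level class, where 25.3% are called and the median is 0.11. Centring within level classes left 6 of the 8 positive, a median of 0.07 and 1 call, that of Cnot1 (Cnot6l adjusted p = 0.0802). Cnot1, the scaffold on which the complex is built, was 1.33-fold higher, reading 0.25, 0.17 and 0.13 in Dicer KO against -0.21, -0.11 and -0.37 in Dicer WT (0.42 ± 0.08, limma adjusted p = 0.0175). Cnot6l, the paralog of Cnot6, read 0.33, 0.36 and 0.08 in Dicer KO against -0.08, -0.09 and -0.35 in Dicer WT (0.43 ± 0.10, limma adjusted p = 0.0458). Neither gene's arrays overlapped between genotypes. Both calls depended on single arrays: leaving out Dicer WT 1, Dicer KO 1 or Dicer KO 2 ended that of Cnot1 (adjusted p 0.0531 to 0.0721), and leaving out any array but Dicer KO 3 ended that of Cnot6l (0.0804 to 0.163). The list kept 0 calls without Dicer WT 1 or Dicer KO 2. The per-array medians of these 8 genes were 0.11, 0.08 and 0.05 in Dicer KO against -0.03, -0.06 and -0.20 in Dicer WT, with Dicer WT 3 again lowest.

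Among 8 other deadenylase and BTG genes 1 fell and 0 rose (12.5%, where 8.73% of all genes were called), with a median of -0.01. The member that fell was Parn, a poly(A)-specific ribonuclease outside both complexes, which read -0.14, -0.15 and -0.08 in Dicer KO against 0.16, 0.22 and 0.08 in Dicer WT. Its difference was -0.28 ± 0.05 (limma adjusted p = 0.0235), and it passed only with all arrays or without one of the replicates 3, with adjusted p from 0.0696 to 0.101 when any other array was dropped. The oocyte-linked family member Btg4 was in this list and had a difference of -0.04 (limma adjusted p = 0.778).

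Of 12 poly(A)-binding proteins and partners, 2 rose and 0 fell (16.7%, where 8.73% of all genes were called), with a median of 0.05. The list has 7 genes in the higher level class, where 25.3% were called. Paip1, which binds poly(A)-binding protein and promotes translation, rose by 0.44 ± 0.07 (limma adjusted p = 0.00992) and kept its call without any 1 array. Larp1, which binds poly(A)-binding protein and the mRNAs of ribosomal proteins, rose by 0.41 ± 0.07 (limma adjusted p = 0.0135), a call lost without Dicer WT 2 (adjusted p = 0.0525).

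Of 18 RNA-binding proteins that recruit deadenylases, 2 rose and 0 fell (11.1%, where 8.73% of all genes were called), with a median of 0.13. The list has 10 genes in the higher level class, where 25.3% were called, and centring within level classes left 1 call, that of Cpeb4. Cpeb4, which binds cytoplasmic polyadenylation elements, was 1.93-fold higher, at 0.63, 0.39 and 0.26 in Dicer KO against -0.42, -0.26 and -0.90 in Dicer WT (0.95 ± 0.17, limma adjusted p = 0.0167). Tnrc6c, a scaffold that links Argonaute to both deadenylase complexes, rose by 0.31 ± 0.06 (limma adjusted p = 0.0211). Without Dicer WT 1 or Dicer KO 2 neither was called, which left 0 members, and Tnrc6c was not called without Dicer KO 1 either (adjusted p 0.0535 to 0.084).

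Of 18 genes of decapping and of decay from the 5′ end, the step that follows deadenylation, 2 rose and 2 fell, with a median of 0.02. These calls are 22.2% of the list, where 8.73% of all genes were called. The list has 7 genes in the higher level class, where 25.3% were called, and centring within level classes left 3 calls. Dcp2, the decapping enzyme, rose by 0.45 ± 0.06 (limma adjusted p = 0.00493) and kept its call without any 1 array. The helicase Ddx6, which binds CCR4-NOT, rose by 0.47 ± 0.11 (limma adjusted p = 0.043), but it did not pass once any single array was dropped (0.0502 to 0.127). Lsm4, of the ring that binds shortened tails, changed by -0.37 ± 0.06 (limma adjusted p = 0.0104; 0.0527 without Dicer KO 2), and the decapping cofactor Dcp1b by -0.27 ± 0.05 (limma adjusted p = 0.0192), which failed when either array numbered 1 or 2 of either genotype was dropped (0.0523 to 0.0845). The 4 calls of the list became 1 without Dicer KO 2, and 2 in the fits that dropped Dicer KO 1, Dicer WT 1 or Dicer WT 2.

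**Figure D3:**
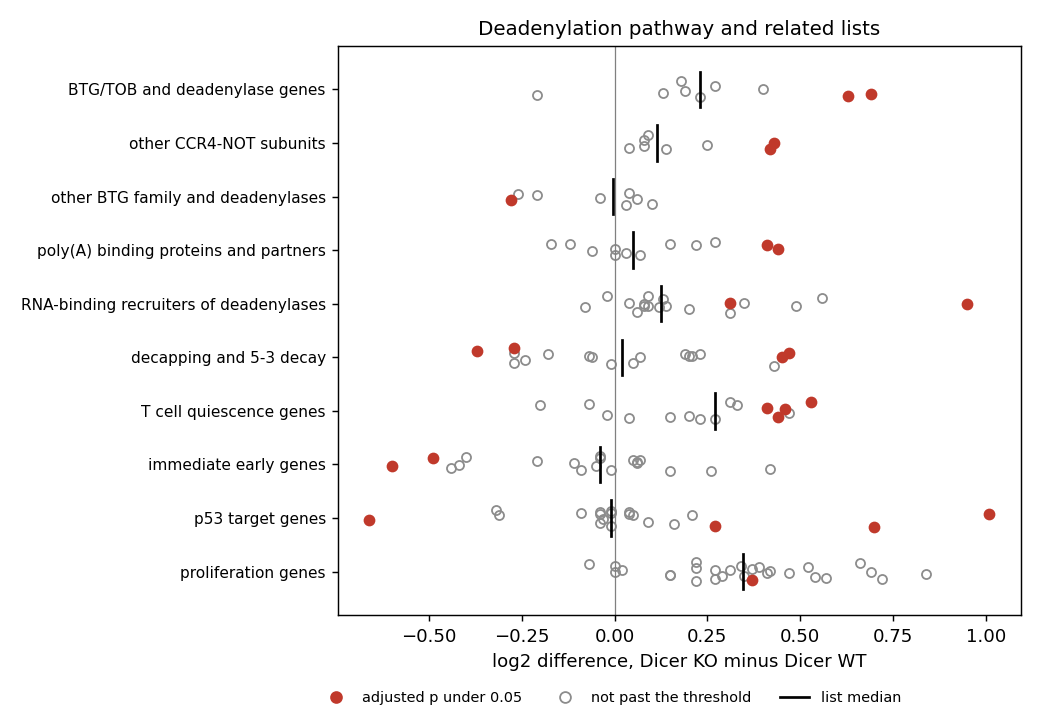
Difference between the genotypes, Dicer KO minus Dicer WT in log2 units (x axis), for every measured gene of the BTG/TOB and deadenylase set and of 9 further lists (y axis), with filled points past an adjusted p of 0.05 and a bar at each list's median. The set's median is 0.23, that of the quiescence genes 0.27 and that of the proliferation genes 0.34, while the decay, immediate early and p53 lists have medians near 0.

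Because BTG and TOB genes are known as quiescence, immediate early and p53-responsive genes, those settings were read beside them. Of 15 T cell quiescence genes, 4 rose and 0 fell, with a median of 0.27: Bach2 (0.44 ± 0.07, limma adjusted p = 0.0147), Peli1 (0.53 ± 0.12, 0.037), the CDK inhibitor Cdkn1b (0.41 ± 0.10, 0.0461) and Slfn2 (0.46 ± 0.11, 0.0487). That is 26.7% called in a list with 12 genes in the higher level class, where 25.3% are called, and centring within level classes left 1 call, that of Bach2, with adjusted p from 0.0567 to 0.14 for the others. None of these 4 calls held without Dicer WT 1 or without Dicer KO 2, where 0 genes of the list were called, and the list had 1 call without Dicer WT 2 and 2 without Dicer KO 1 or Dicer KO 3 (adjusted p of the lost calls 0.0558 to 0.166). The proliferation list leaned the same way, with a median of 0.34 over 28 genes, of which 1 rose and 0 fell (3.57%, where 8.73% of all genes were called). That gene was Pcna (0.37 ± 0.08, limma adjusted p = 0.0334), called in none of the fits without 1 array but that without Dicer KO 1 (adjusted p 0.0575 to 0.105 in the others), where 4 genes of the list were called. The proliferation medians were 0.01, 0.16 and 0.49 on the Dicer KO arrays and -0.11, -0.03 and -0.15 on the Dicer WT arrays, with Dicer KO 3 highest. Among the Dicer KO arrays, Btg1 was lowest on Dicer KO 3 (0.20), and Btg2 was highest there by a small margin (0.35, against 0.33 and 0.26). Whether either gene follows the proliferation genes was not tested.

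Of 19 immediate early genes, 0 rose and 2 fell (10.5%, where 8.73% of all genes were called), with a median of -0.04. Egr1 read -0.28, -0.27 and -0.19 in Dicer KO against 0.32, 0.19 and 0.24 in Dicer WT (-0.49 ± 0.06, limma adjusted p = 0.00329) and kept its call without any 1 array. Nr4a1, induced by T cell receptor signals, changed by -0.60 ± 0.10 (limma adjusted p = 0.0134), which did not pass without Dicer WT 2 or Dicer KO 2 (0.0508 to 0.066), leaving 1 call in the list. Of 20 p53 target genes, 3 rose and 1 fell (20%, where 8.73% of all genes were called), with a median of -0.01. Cdkn1a and Bax were listed too, but neither had a row that carried its symbol and no other, so they have no value. Ccng1 (0.70 ± 0.06, limma adjusted p = 0.00128) and Trp53inp1 (1.01 ± 0.12, 0.00371) rose and the kinase gene Plk3 changed by -0.66 ± 0.09 (0.0054), calls that held without any 1 array. Sesn2 (0.27 ± 0.06, 0.0431) lost its call without any array but Dicer KO 3 (0.0729 to 0.153).

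Markers of other cells were read beside these genes, as differences only, since levels are not held. Of 16 B cell markers 1 rose and 0 fell (6.25%, where 8.73% of all genes were called), with a median of 0.23. In this list 14 differences were positive and 2 negative, and 8 had an unadjusted limma p under 0.05. The medians of the 16 B cell markers were 0.17, 0.01 and 0.08 on the Dicer KO arrays and -0.39, 0.03 and -0.20 on the Dicer WT arrays. The B cell gene Bank1 rose by 0.71 ± 0.11 (limma adjusted p = 0.00975; 0.0515 without Dicer KO 2, with 0 calls left), and 5 markers were called without Dicer WT 2. Of 16 myeloid markers 3 rose and 0 fell: Ctss (0.66 ± 0.05, limma adjusted p = 0.00126), Mpeg1 (0.96 ± 0.10, 0.00319) and Lyz2 (0.69 ± 0.12, 0.0165), the last not called without Dicer WT 1 or Dicer KO 2 (0.0654 to 0.0699). These 3 are 18.8% of the myeloid list, where 8.73% of all genes were called. The list median was 0.02, with 0.01, 0.02 and 0.07 on the Dicer KO arrays and -0.04, 0.01 and -0.02 on the Dicer WT arrays. Of 11 NK and CD8 markers 0 were called and 4 had an unadjusted p under 0.05, those of lowest p being Gzma (0.22, limma adjusted p = 0.0512) and Cd8b1 (-0.26, 0.0567). In the fits that dropped Dicer KO 1, Dicer KO 3 or Dicer WT 3, 1 of the 11 was called, with 2 called after centring within level classes and 4 with array weights, Gzma (adjusted p = 0.0267) and Cd8b1 (adjusted p = 0.0237) among the 4. Of 10 T cell markers Cd4 rose (0.67 ± 0.07, limma adjusted p = 0.00328) and Cd5 fell (-0.44 ± 0.06, 0.00704), calls that held without any 1 array. They are 20% of a list wholly in the higher level class, where 25.3% of genes were called. The part of other cells in the differences of Btg1 and Btg2 was not tested. With both Dicer WT arrays of low B cell markers (1 and 3) left out, Btg2 differed by 0.73 and Btg1 by 0.52. That fit was chosen after seeing the data and has Dicer WT 2 as the lone Dicer WT array, so it does not test the part of other cells. In bulk RNA, more cells of a type and more RNA per cell cannot be told apart.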

How the data were processed

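The deposited table of log2 values, 28815 array rows by 6 arrays, was used as the authors made it. MAS5 is the only tool named, per the submitters' processing notes, and what it did is not stated. The largest absolute row median was 5e-07, so every row is centred over the arrays and levels are lost. The log base is not stated and base 2 is assumed. Rows with 1 symbol in GEO's platform annotation numbered 21780, of which 21689 took RefSeq's GRCm38.p6 symbol by gene ID, and rows of a gene were averaged to 19935 genes. The level class is the coarseness of the binary step of the stored numbers and can be wrong for single rows.

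Genotypes were compared with limma 3.58.1 in R 4.3.3 (lmFit, eBayes, 3 against 3 arrays, no filter), adjusted over all genes with a threshold of 0.05, and the procedure was tested on simulated data. The genes and lists were chosen with earlier results of these data known. Named are the set's genes, up to 5 called genes per list by lowest p (2 where none was called), and the 3 genes nearest in pattern to each called gene of the set. Btg4, Cdkn1a, Bax and the rows of Btg3 are named outside this rule. Alternatives were each array left out, a replicate block, array centring, quantile normalization, centring within level classes, robust eBayes, array weights and other handling of rows. Added after seeing the data were fits without both arrays numbered 3 and without Dicer WT 1 and Dicer WT 3. The number of arrays limits the precision, and protein sequences were not used here.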

Additional observations from a re-analysis of the deposited data

Results flagged for a closer look

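The array rows outside the comparison were those shared by Btg3, a further BTG family gene, and the pseudogene Gm7334. They were looked at because they carry a difference in rows that no gene's value uses. The first shared row read 0.04, 0.26 and 0.44 on the Dicer KO arrays and -0.04, -0.07 and -0.18 on the Dicer WT arrays, a difference of 0.35. The second read 0.06, 0.25 and 0.39 on the Dicer KO arrays and -0.06, -0.09 and -0.21 on the Dicer WT arrays, also a difference of 0.35. The genotypes did not overlap on either row, and the difference was not tested. Which of the genes the signal comes from cannot be told from these rows, and both rows may bind the same transcripts, so they are not separate measurements.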

How the results depend on the processing

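Btg1 and Btg2 kept their direction in every fit run, and their calls in each fit but those named here. Without Dicer WT 1 and Dicer WT 3, Btg1 (0.52, adjusted p = 0.153) lost its call, which left 1 member called, 213 genes called in all and 3 in the 9 pathway lists. That fit has 4 arrays and assumes that the lone Dicer WT array varies like the Dicer KO arrays. In the exact permutation test Btg1 (0.63) and Btg2 (0.69) gave p = 0.1, the smallest possible. Tob2 and Cnot6, not called in the main fit, gave the same value in that test. Over the fits that left out 1 array, differences ran from 0.55 to 0.69 for Btg1, 0.65 to 0.75 for Btg2, 0.08 to 0.18 for Tob1, -0.28 to -0.16 for Tob2, 0.23 to 0.50 for Cnot6, 0.02 to 0.27 for Cnot7, 0.14 to 0.33 for Cnot8, 0.10 to 0.24 for Pan2 and 0.18 to 0.36 for Pan3. Cnot6 passed with the replicate number as a block (0.40, adjusted p = 0.0492) and without both arrays numbered 3 (0.27, adjusted p = 0.048). Pan3 (0.27, limma adjusted p = 0.0514) and Cnot8 (0.23, limma adjusted p = 0.0596) came close to the threshold with the block but did not pass. With the block 2063 genes were called, against 1741 without it, Btg1 (0.63) and Btg2 (0.69) stayed called, and 3 of the 9 measured genes were called. The numbers were not taken as pairs. Deviations of same-numbered arrays correlated at 0.27, -0.08 and 0.3 for numbers 1 to 3. Dicer KO 1 and Dicer KO 3 correlated best with the Dicer WT array of their own number, Dicer KO 1 nearly as well with Dicer WT 2 (0.23). Dicer KO 2 correlated best with Dicer WT 3 (0.09). The pathway lists held 32 called genes with the block. Genes called ran from 729 to 1597 without 1 array, lowest without Dicer KO 2 and at 849 and 1050 without Dicer WT 1 and Dicer WT 2. The pathway lists held 22 called genes, 7 to 23 without 1 array (7 without Dicer KO 2, 9 without Dicer WT 1, 11 without Dicer WT 2), and 35 with array weights. Centring within level classes lowered the differences of Btg1 and Btg2 to 0.53 and 0.59, that of Cnot7 to 0.08, that of Tob1 to 0.04, that of Pan2 to 0.09, that of Cnot8 to 0.13 and that of Pan3 to 0.17, and left 15 called genes in the pathway lists. It took the calls of the recruiters to 1 and of the proliferation list to 0. Among the other results, 532 kept their side of the threshold or, where they were counts, stayed near the main count. A further 99 lost a call, 7 gained one, 78 counts moved and 0 reversed. The causes were not tested.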
